A study of Mus musculus with 6 samples.

Results

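The respiratory chain genes described here are the nuclear-encoded genes whose array symbol begins with Nduf, Uqcr, Sdha to Sdhd, Cox4 to Cox8 or Atp5. Of 89 such genes on the array, 82 had a probe with a detection p-value under 0.05 on at least 2 of 6 arrays, and these 82 of the 8605 genes tested are called the members. They comprised 33 genes of complex I, 3 of complex II, 6 of complex III, 15 of complex IV and 15 of complex V. The remaining members were 5 complex I assembly factors, 4 complex II assembly factors and the pseudogene Ndufs5-ps. The 7 genes that were not detected often enough were Ndufs1, Uqcrfs1, Uqcrq, Cox4i2, Cox7b2, Cox8c and Atp5k.

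The samples were mouse embryonic stem cells, which are cultured cells that can form every tissue of the embryo, grown in serum with LIF and without feeder cells. Sox17_dox denotes 2 independently derived lines with a doxycycline-inducible Sox17, an endoderm transcription factor, given doxycycline at 1 µg/mL for 5 days (n = 2). Sox17_untreated denotes the same 2 lines without doxycycline (n = 2). KH2_dox and KH2_untreated denote the control line KH2 with and without the drug (n = 1 each). The line whose label carries no number is called line 1. Nothing in the labels says which promoter or locus carries the inducible gene, and each line was measured once per condition. The question addressed here is how these genes differed with doxycycline, complex by complex, between the inducible lines and KH2.

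The mitochondrial respiratory chain passes electrons from NADH (through complex I) and succinate (through complex II) to complex III and on to complex IV, which reduces oxygen. The proton gradient that results drives complex V, the ATP synthase. Most subunits are encoded in the nucleus and assembled with a few made on mitochondrial ribosomes, whose translation is known to be inhibited by tetracycline antibiotics such as doxycycline. Naive mouse embryonic stem cells are known to respire as well as to use glycolysis. Only transcripts were measured here, not proteins or respiration.

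The 6 arrays lay on 1 chip, detected 11219 to 11957 of 25697 probes, and had medians of raw signal between 109 and 129 intensity units. The KH2_dox array had both the fewest detected probes (11219) and the highest median (129), against 11781 and 125 for KH2_untreated. Precision is limited by having only 6 arrays. Levels below are normalised signals on the log2 scale, and a change is the level with doxycycline minus the level without it in the same line. Levels of different genes are not comparable, because each probe binds with its own strength. All 10 embryonic stem cell marker genes examined, among them Pou5f1 and Nanog, were detected on every array. Of 7 fibroblast and feeder cell markers, 1 or 2 were detected on an array. Of 9 primitive endoderm markers, 5 and 8 were detected on the Sox17_dox arrays of line 1 and line 2, against 5 on each Sox17_untreated array, 4 on the KH2_dox array and 5 on the KH2_untreated array. The log2 of the summed endoderm marker signal was 12.32 and 12.94 on the Sox17_dox arrays, against 10.82 and 12.23 on the Sox17_untreated arrays, 11.06 on the KH2_dox array and 10.96 on the KH2_untreated array. The part of these cells in the results below was not tested. In such bulk samples, fewer cells that express a gene and less of its RNA per cell cannot be told apart. The brighter probe for Sox17 was detected on 1 array, that of Sox17_dox line 2, and the other on none, so these probes do not check the labels.

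The respiratory chain genes were spread about 0 in the inducible lines, and most of them read higher with doxycycline in KH2. In line 1, 35 of 82 members were higher with doxycycline and 46 were lower, where 48.6% of all genes were higher, and the median change was -0.03 against -0.01 over all genes. In line 2, 43 were higher and 38 lower, where 49.3% of all genes were higher, and the median was 0.00 against -0.00 over all genes. The line 2 split depended on the scaling, with 27 of 82 members higher when arrays were scaled to a common median. In KH2, 64 of 82 members (78%) were higher, where 52% of all genes were, and the median was 0.16 against 0.02 over all genes. The members' median lay above 47.9% of all genes in line 1 and 51% in line 2, and above 64.3% in KH2.

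The changes in KH2 were small. They reached 0.5 or more upward in 9 members (11%) and downward in 1 (1.22%), where 9.15% of all genes were higher by that much and 12.6% lower. No member reached a change of 1 in KH2 (in the authors' values Cox6a2 did, at 1.01), where 0.488% of all genes were higher by that much and 1.52% lower. Among the 41 members brighter than the median member, 31 (75.6%) were higher with doxycycline in KH2, with a median change of 0.15. Of the 715 genes above that same level, 51.2% were higher, with a median change of 0.01. KH2 had the highest change of the 3 lines in 59 of 82 members (72%), where this held for 36.2% of all genes. With 1 array per condition there is no replicate check on KH2, and no test was made of it. The KH2_dox array also had the fewest detected probes and the highest raw median of all arrays. The part of this in the KH2 changes was not tested.

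**Figure D1:**
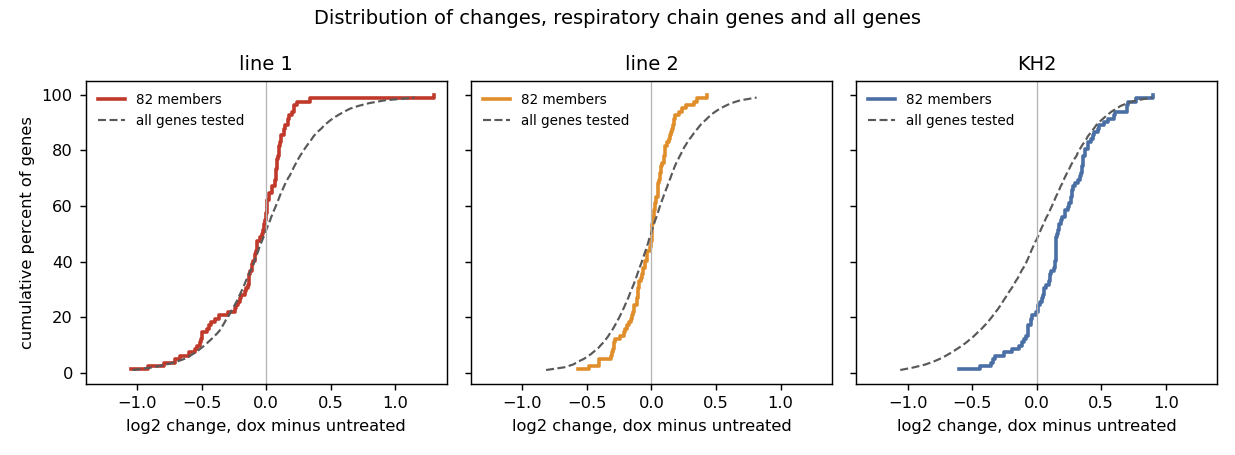
Cumulative percent of genes (vertical axis) against the log2 change, doxycycline minus untreated (horizontal axis), in line 1, line 2 and KH2. The solid step curve holds the 82 members and the dashed curve all 8605 tested genes. In KH2 the members' curve lies to the right of the dashed one over most of its range, with a median of 0.16, while in both inducible lines the curves cross near 0.

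No single member passed a test. With limma, Sox17_dox minus Sox17_untreated called 0 of 12373 probes (0%, the threshold being an adjusted p of 0.05), with 528 at an unadjusted p under 0.05. With the cell line as a block that comparison called 1 probe, which belonged to no member. Among the 82 members 5 reached an unadjusted p under 0.05, namely Uqcrh, Cox7a2, Cox7b, Ndufaf4 and Sdhaf3. All 5 had lower fitted values in Sox17_dox, and each had a limma adjusted p of 0.955. With the cell line as a block their limma adjusted p ran from 0.255 to 0.302. The comparison of 3 doxycycline arrays with 3 untreated arrays gave 0 probes (0%), with 760 at an unadjusted p under 0.05, 2 of them for members (Ndufaf4 and Cox7b). The difference between the change of the inducible lines and that of KH2 gave 0 probes (0%), with 344 at an unadjusted p under 0.05 and none of them the brightest probe of a member. The values below are therefore given as sizes.

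Promoter sequences of the members were searched for the recognition motifs of factors known to act on respiratory chain genes. RefSeq windows of 250 bases before to 50 after the gene start (GRCm38.p6) were matched for 71 of 82 members, giving 76 windows. The NRF1 motif (GCGCA, any 1 base, then GCGC), like the others searched on both strands, was present in 18 member windows (23.7%), in 7.02% of the windows of all genes on the array and in 4.6% of all 32851 windows. The ETS motif CCGGAAG was present in 19 (25%), against 12.2% and 8.86%. The YY1 motif AANATGGCG was present in 11 (14.5%), against 3.36% and 2.38%, and the E-box CACGTG in 7 (9.21%), against 8.32% and 7.15%. Members had passed the detection filter, whereas the windows of all genes on the array also cover genes that were not detected. No share was taken over the tested genes alone, so detection and membership are not separated in these shares. Motifs were counted separately even where they overlapped, and a match describes letters, not binding. Upstream stretches are printed below for Ndufaf4 and Cox6a1, because both genes had separated doxycycline and untreated arrays and an NRF1 match before the start. Sdhb had 1 ETS match and Uqcrc1 had 2 NRF1 matches, none of them wholly before the start.

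Complex I, the NADH dehydrogenase, supplied 33 members. With doxycycline 14 of them were higher in line 1 (median -0.03), 21 in line 2 (median 0.03) and 26 in KH2 (median 0.15). The line 2 count was 13 with arrays scaled to a common median and 17 in the authors' values, and the KH2 count was 30 with that scaling. The largest upward values belonged to accessory subunits of the membrane arm. Ndufb7 read 9.58, 9.28 and 9.70 with doxycycline in line 1, line 2 and KH2, against 9.81, 9.14 and 8.80 without it. Its change was thus -0.23, 0.14 and 0.90, and the KH2_untreated array was the lowest of the 6. Ndufb9 read 8.99, 9.41 and 9.39 with doxycycline, against 8.92, 9.33 and 8.70 without it, which gave changes of 0.07, 0.08 and 0.70. Again the KH2_untreated array was the lowest of the 6. Ndufb4 had changes of -0.16, 0.00 and 0.77, and this gene was singled out after its values were seen. The brighter probe of Ndufb6, a further membrane-arm subunit, gave 0.07, 0.10 and 0.15, and its dimmer one -0.08, 0.15 and 0.88.

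At the other end of complex I stood Ndufb3 and Ndufa5. Ndufb3, another small membrane-arm subunit, read 10.55, 10.92 and 10.65 with doxycycline in line 1, line 2 and KH2, against 11.34, 11.03 and 10.51 without it. Line 1 carried most of that difference, with a change of -0.79 against -0.11 in line 2 and 0.15 in KH2. Ndufa5, an accessory subunit of the peripheral arm, read 10.89, 10.72 and 10.42 with doxycycline and 11.32, 11.12 and 10.49 without it. Its changes were -0.42, -0.40 and -0.06, and its dimmer probe gave -0.57, -0.09 and -0.31. The catalytic subunit gene Ndufv1, which binds NADH, had changes of 0.20, -0.07 and 0.02. The 75 kDa iron-sulphur subunit gene Ndufs1 was detected on no array. Ndufa4 keeps a complex I name although its protein is known to belong to complex IV, and its changes were 0.07, 0.07 and -0.01.

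Of the 5 complex I assembly factors, 4 were higher with doxycycline in KH2. Ndufaf5 gave -0.02, -0.15 and 0.26 by its brighter probe and 0.50, 0.20 and 0.40 by its dimmer one. The exception was Ndufaf4, which was lower in all 3 lines and was singled out after its values were seen. Ndufaf4 read 10.10, 10.07 and 10.53 with doxycycline in line 1, line 2 and KH2, against 10.65, 10.56 and 10.88 without it. All 3 doxycycline arrays lay below all 3 untreated arrays. The fitted difference between those groups was -0.46 ± 0.19 (SE, n = 3 against 3, limma adjusted p = 0.784, or 0.225 with the cell line as a block). The within-line changes of Ndufaf4 were -0.55, -0.48 and -0.36. The 250 bases before its start, chr4:24897833-24898082 on the plus strand, hold 1 NRF1 match, shown in capitals.
Ndufaf4: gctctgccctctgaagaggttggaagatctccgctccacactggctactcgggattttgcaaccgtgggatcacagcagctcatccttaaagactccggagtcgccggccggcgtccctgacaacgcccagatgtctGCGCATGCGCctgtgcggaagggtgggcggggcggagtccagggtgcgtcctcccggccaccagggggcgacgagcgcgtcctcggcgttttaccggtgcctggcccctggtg

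Complex II, succinate dehydrogenase, also belongs to the citric acid cycle. Of its 3 members, 1 was higher with doxycycline in line 1 and 2 in line 2, while KH2 had 3, where the median change was 0.34. Sdha was not analysed, because no probe carried that symbol in the platform annotation. Sdhb, the iron-sulphur subunit, read 11.56, 11.64 and 11.87 with doxycycline in line 1, line 2 and KH2, against 11.52, 11.53 and 11.16 without it. The 3 doxycycline arrays lay above the 3 untreated ones, although the change was 0.04 and 0.11 in the inducible lines against 0.70 in KH2. A second Sdhb probe gave 0.14, 0.07 and 0.72. Raw Sdhb signals in KH2 were 4333.4 and 2546.5 intensity units with and without doxycycline (bead standard errors of 161.84 and 84.37, which cover the error within 1 array only). Sdhd, a membrane anchor, differed in direction between lines. It read 8.46, 8.93 and 9.52 with doxycycline and 9.13, 9.01 and 9.18 without it, for changes of -0.66, -0.08 and 0.34. The other anchor, Sdhc, had changes of -0.07, 0.12 and 0.17. Of the 4 assembly factors of complex II, 1 was higher in line 1 and none in line 2, while KH2 had 3. Sdhaf3 read 8.35 and 8.45 on the Sox17_dox arrays, against 9.06 and 8.86 on the Sox17_untreated arrays, and 8.71 and 8.52 in KH2 with and without the drug. Its fitted difference between Sox17_dox and Sox17_untreated was -0.56 ± 0.20 (SE, n = 2 against 2, limma adjusted p = 0.955, or 0.255 with the cell line as a block).

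Complex III, the cytochrome bc1 complex, held members with changes of opposite sign. Its 2 large core proteins had higher values with doxycycline in all 3 lines. Uqcrc1 read 12.89, 12.94 and 13.08 with doxycycline in line 1, line 2 and KH2, against 12.80, 12.77 and 12.83 without it. The groups did not overlap, and the changes were 0.08, 0.18 and 0.25. Uqcrc2 had changes of 0.11, 0.24 and 0.14. The lowest mean changes over the 3 lines were those of 2 small subunits, Uqcrb and Uqcrh. Uqcrb read 10.73, 10.74 and 10.49 with doxycycline and 11.23, 11.04 and 10.82 without it. All 3 doxycycline arrays lay below all 3 untreated ones, with changes of -0.50, -0.30 and -0.32. The fitted difference for Uqcrb was -0.37 ± 0.18 (SE, n = 3 against 3, limma adjusted p = 0.784, or 0.304 with the cell line as a block).

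Uqcrh, the acidic hinge protein of complex III, had the lowest change of any member in line 1, where its change was -1.05. It read 12.74, 13.07 and 13.32 with doxycycline in line 1, line 2 and KH2, against 13.78, 13.38 and 13.26 without it. Both Sox17_dox arrays lay below both Sox17_untreated arrays, whereas the KH2 change was 0.06. In line 1 the raw signal was 6611 intensity units with doxycycline and 13157.2 without it, with bead standard errors of 205.28 and 514.79, which again cover only the error within an array. The fitted difference between Sox17_dox and Sox17_untreated was -0.68 ± 0.24 (SE, n = 2 against 2, limma adjusted p = 0.955, or 0.255 with the cell line as a block). The other small subunits of complex III, Uqcr10 and Uqcr11, had changes of -0.11 each in line 1. Line 2 gave -0.21 and -0.19, and KH2 0.36 and 0.30. Both were named after their values were seen. Over complex III, 2 of 6 members were higher in each inducible line and 5 in KH2. The Rieske iron-sulphur protein gene Uqcrfs1 was detected on no array.

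**Figure D2:**
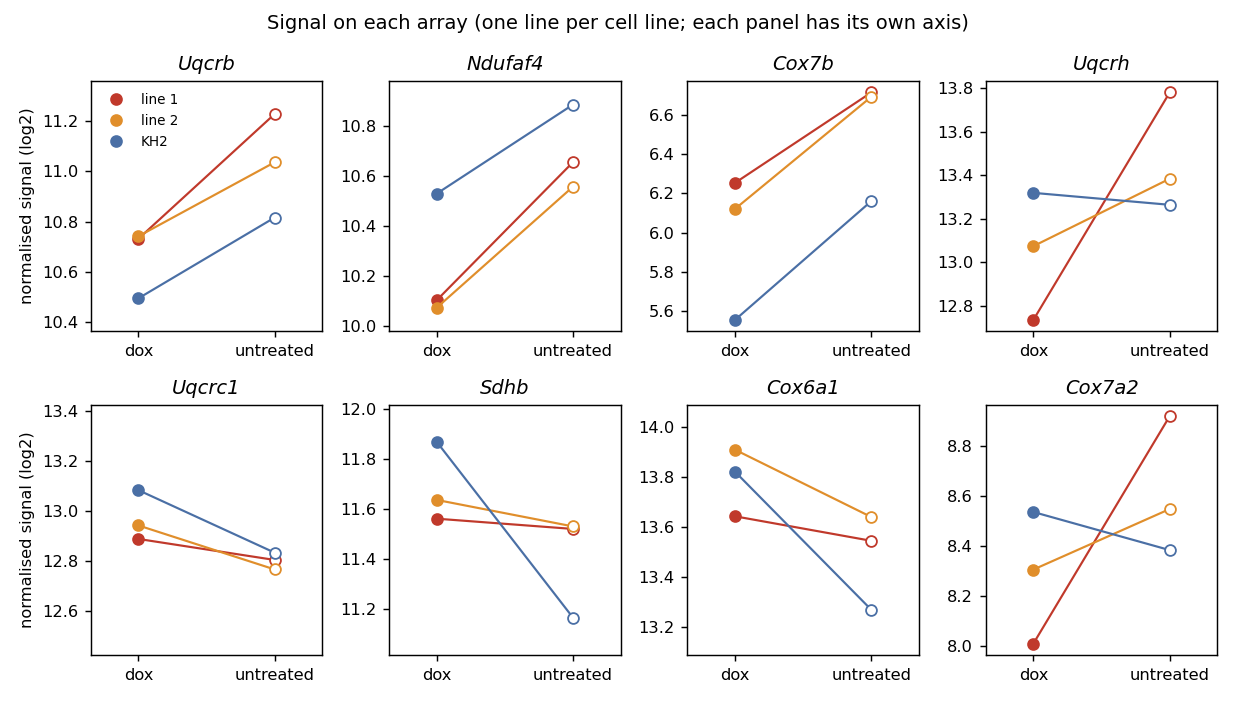
Normalised signal (log2) of 8 members on each array, with doxycycline (filled) and without it (open), joined within a cell line. Uqcrb and Ndufaf4 have all 3 filled points below the 3 open ones, Uqcrc1, Sdhb and Cox6a1 have them above, and Uqcrh and Cox7a2 differ in direction between the inducible lines and KH2.

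Complex IV, cytochrome c oxidase, had 8 of 15 members higher in doxycycline-treated line 1, with 10 for line 2 and 11 for KH2, and medians of 0.07, 0.08 and 0.18. The line 2 count was 8 with arrays scaled to a common median. The line 1 median was -0.058 in the authors' values and -0.002 with detection required on all 6 arrays. Cox8b, counted as higher in line 1, was detected on neither array of that line. Cox4i1, the common form of subunit 4, read 14.73, 14.47 and 14.61 with doxycycline in line 1, line 2 and KH2, against 14.49, 14.34 and 14.26 without it. Its changes of 0.24, 0.13 and 0.36 went one way. Cox5a had changes of 0.09, 0.03 and -0.10. Cox6a1, the form of subunit 6a found in most tissues, read 13.64, 13.91 and 13.82 with doxycycline and 13.54, 13.64 and 13.27 without it. The doxycycline arrays of Cox6a1 lay above the untreated ones, but not with arrays scaled to a common median or in the authors' values. Its changes were 0.10, 0.27 and 0.55, and a second probe gave -0.03, 0.14 and 0.51. The 250 bases before its start, chr5:115348959-115349208 on the minus strand, hold in capitals 2 NRF1 matches and, nearest the start, 1 ETS match on the opposite strand.
Cox6a1: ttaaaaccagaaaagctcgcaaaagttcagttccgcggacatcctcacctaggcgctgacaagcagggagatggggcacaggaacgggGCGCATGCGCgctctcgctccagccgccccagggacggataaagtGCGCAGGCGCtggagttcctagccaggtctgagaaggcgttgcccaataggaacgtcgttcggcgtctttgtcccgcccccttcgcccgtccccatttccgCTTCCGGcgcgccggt

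The lowest mean changes over the 3 lines in complex IV were those of Cox7b and Cox7a2, which encode subunits 7b and 7a. Cox7b read 6.25, 6.12 and 5.55 with doxycycline in line 1, line 2 and KH2, against 6.72, 6.69 and 6.16 without it. The changes were -0.46, -0.57 and -0.61, and in each condition KH2 was the lowest of the 3 lines. Cox7b was dim and was not detected on the KH2_dox array. With the background correction used here, KH2_dox was at least 1.26-fold lower than KH2_untreated. That bound does not hold with no background correction, where the KH2 change was -0.28. The fitted difference of the 3 doxycycline arrays from the 3 untreated ones was -0.55 ± 0.24 (SE, n = 3 against 3, limma adjusted p = 0.784, or 0.172 with the cell line as a block). That fitted difference was -0.34 without the KH2_dox array and -0.28 with no background correction. Cox7a2, the widely expressed form of subunit 7a, read 8.01, 8.30 and 8.54 with doxycycline and 8.92, 8.55 and 8.38 without it. Its changes were -0.91, -0.24 and 0.15. Cox7a2l, a supercomplex assembly factor related to it, had changes of 0.17, 0.05 and 0.15.

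Several complex IV subunits have a second form known from heart and skeletal muscle. Cox6a2, the muscle form of subunit 6a, read 7.54, 6.34 and 5.90 with doxycycline in line 1, line 2 and KH2, against 6.23, 6.19 and 5.39 without it. The Sox17_dox array of line 1 stood above the rest, with a change of 1.30, against 0.15 in line 2. Cox6a2 was not detected on the KH2_untreated array, so with the background correction used here KH2_dox was at least 1.18-fold higher. It was the 1 member higher by 1 or more in line 1, where 1.56% of all genes were, and Uqcrh was the 1 lower by that much, where 1.21% were. Cox6a2 was dim, and its change in line 1 was 0.78 with no background correction, which leaves no member higher by 1 there. Cox7a1, the muscle form of subunit 7a, read 9.74 and 10.38 on the Sox17_dox arrays and 9.90 and 10.03 on the Sox17_untreated arrays, against 9.35 and 8.65 in KH2 with and without doxycycline. All 4 inducible-line arrays thus lay above both KH2 arrays. Cox8b, the muscle form of subunit 8, was detected only in line 2, at 7.56 with and 7.12 without doxycycline. On the arrays of line 1 and KH2 it read between 4.93 and 5.28, not well above background. Cox8a had changes of -0.07, 0.10 and 0.18. Cox6b2, known as the testis form of subunit 6b, had changes of -0.50, 0.08 and 0.32 by its brighter probe and 0.04, -0.20 and 0.16 by its dimmer one. Cox6b1 had changes of -0.24, 0.22 and 0.28. Cox4i2 was not detected, and Cox8c was detected on 1 array.

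Complex V, the ATP synthase, had 7 of 15 members higher in doxycycline-treated line 1, with 5 for line 2 and 11 for KH2, and medians of -0.01, -0.05 and 0.15. With arrays scaled to a common median the line 2 count was 0 and the KH2 count 14, and in the authors' values they were 2 and 13. Atp5a1 and Atp5b, which encode the alpha and beta subunits, had small changes. Atp5b read 15.03, 14.96 and 15.00 with doxycycline in line 1, line 2 and KH2, against 14.90, 15.03 and 15.00 without it. The changes of Atp5a1 were 0.21, -0.01 and 0.09. The 3 genes Atp5g1, Atp5g2 and Atp5g3 encode the same mature c subunit, which forms the rotor ring, behind different import peptides. Atp5g1 had changes of -0.44, -0.21 and 0.15, and Atp5g3 by -0.22, -0.16 and 0.16, so the inducible lines and KH2 differed in sign for both. Atp5g2 read 11.75, 11.72 and 11.94 with doxycycline and 11.73, 11.71 and 11.33 without it, and its changes were 0.02, 0.00 and 0.61. For it the KH2_dox array was the highest of the 6 and the KH2_untreated array the lowest. Atp5d, the delta subunit of the F1 part, had changes of 0.14, 0.03 and 0.40. The lowest mean change of complex V was that of Atp5mpl, a small membrane protein of the synthase, at -0.60, -0.14 and -0.05.

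**Figure D3:**
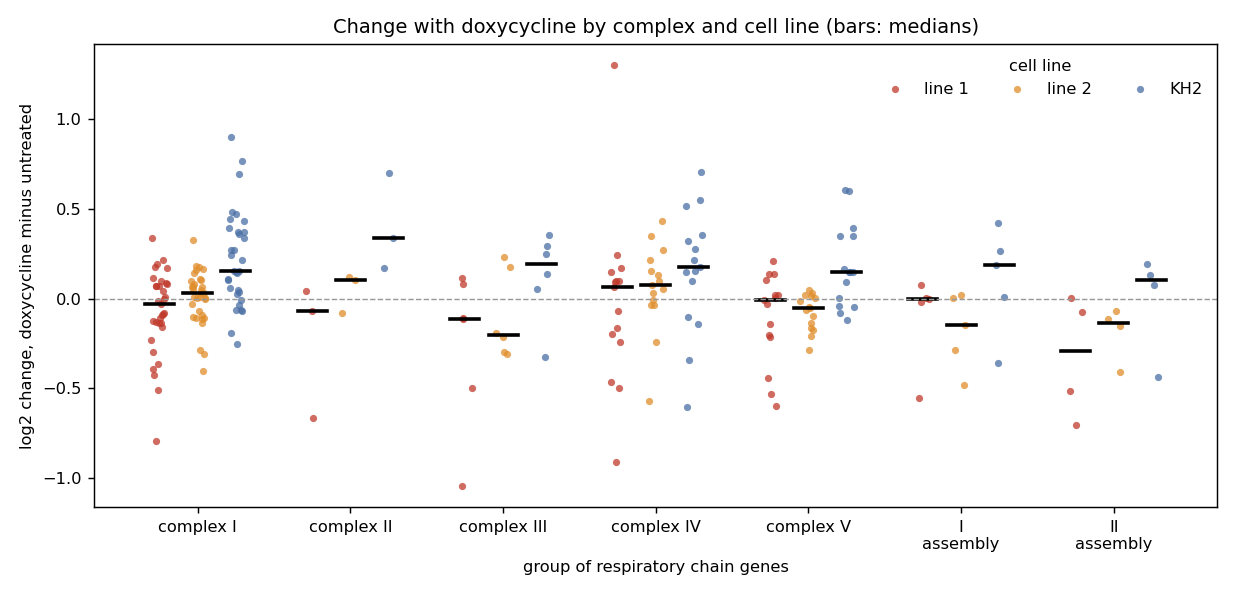
Log2 change, doxycycline minus untreated (vertical axis), of each subunit or assembly factor in line 1, line 2 and KH2, grouped by complex (horizontal axis), with bars at the medians. The KH2 medians are above 0 in all 7 groups, from 0.10 to 0.34.

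Few members separated the doxycycline arrays from the untreated ones across all 3 lines. All 3 doxycycline arrays lay above all 3 untreated arrays for 3 members (Sdhb, Uqcrc1 and Cox6a1, 3.66%), where this held for 5.17% of all genes. They lay below for 2 members (Uqcrb and Ndufaf4, 2.44%), where it held for 5.94%. Over the 3 lines both shares were under those of all genes. With arrays scaled to a common median Sdhb, Uqcrc1 and Uqcrb were so separated, and in the authors' values Cox4i1, Sdhb, Uqcrc1 and Ndufaf4. With all probes of a gene averaged Sdhb and Cox6a1 were not, while Ndufaf5, Ndufb11 and Uqcrc1 lay above and Uqcrb and Ndufaf4 below. With 1 line left out there are fewer arrays to separate, and the shares of all genes were higher too. Without line 1 the doxycycline arrays lay above for 16 members (19.5%, against 16.9% of all genes) and below for 5 (6.1%, against 18.3%). Without line 2 the counts were 12 above (14.6%, against 16.2%) and 3 below (3.66%, against 17.2%). Without KH2 they were 9 above (11%, against 15.9%) and 20 below (24.4%, against 17.6%). The sign of change was positive in all 3 lines for 18 members (22%, against 18.5% of all genes) and negative for 6 (7.32%, against 18.2%). The 6 were Ndufa5, Uqcrb, Cox7b, Atp5j, Atp5mpl and Ndufaf4. Another 19 members (23.2%) were higher in KH2 and lower in both inducible lines, where 13% of all genes were, and 5 (6.1%) showed the opposite, where 10.8% did. Across the 82 members the changes of line 1 and line 2 had a Pearson correlation of 0.43, those of line 1 and KH2 0.16, and those of line 2 and KH2 0.32. Over all 8605 genes these correlations were 0.33, 0.18 and 0.28. By rank (Spearman), the correlations across the members were lower, at 0.33, 0.05 and 0.28 for the same pairs of lines. They are across genes, which are not independent replicates, and all arrays share 1 chip and 1 normalisation.

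In line 1, changes of -0.5 or lower were found in 10 members (12.2%), where 9.05% of all genes were lower by that much, against 1 member at 0.5 or higher, where 9.03% of all genes were. The 10 were Uqcrh, Cox7a2, Ndufb3, Sdhaf3, Sdhd, Atp5mpl, Ndufaf4, Atp5o, Sdhaf4 and Ndufab1, and they were singled out after their values were seen. With arrays scaled to a common median Ndufaf4 (-0.482), Atp5o (-0.453), Sdhaf4 (-0.439) and Ndufab1 (-0.497) fell short of -0.5. With no background correction Atp5o (-0.492), Sdhaf4 (-0.484) and Ndufab1 (-0.234) did. Ndufab1 was not detected on the Sox17_dox array of line 1, and its change there was -0.903 in the authors' values. In line 2 only Cox7b reached -0.5, where 5.68% of all genes did, and no member reached 0.5, where 5.92% did, or a change of 1, where 0.407% of all genes were higher by that much and 0.43% lower.

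**Figure D4:**
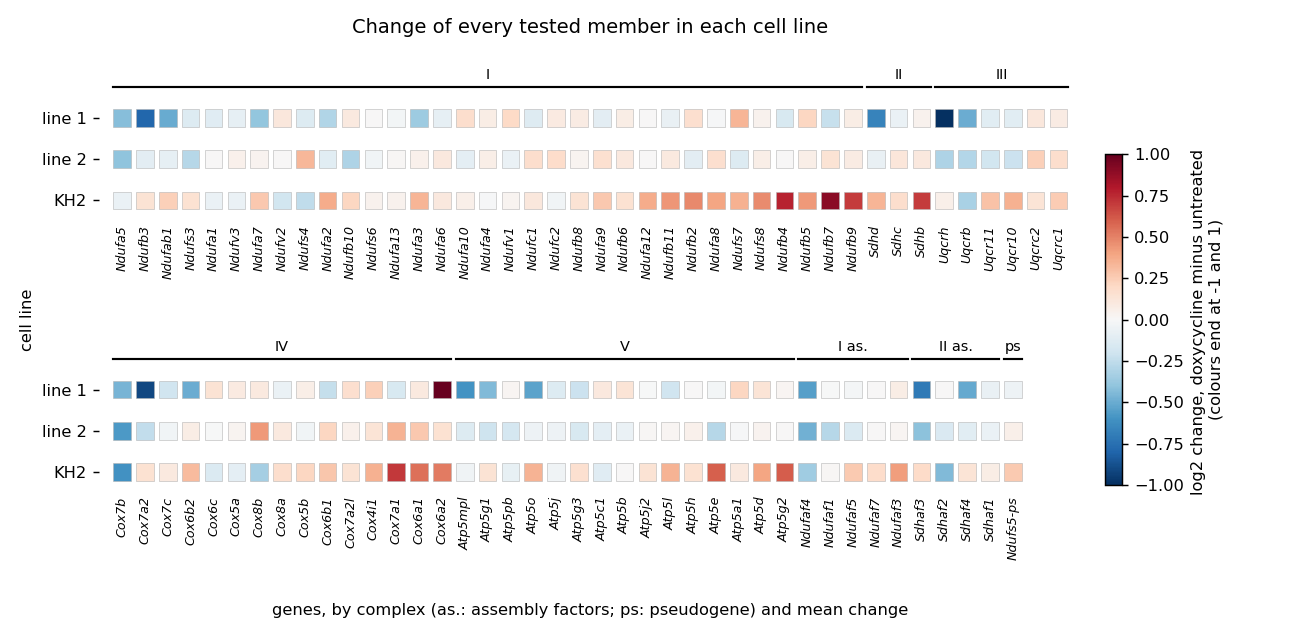
Colour gives the log2 change, doxycycline minus untreated, of each of the 82 members (columns, by complex and mean change) in line 1, line 2 and KH2 (rows). Red is higher with doxycycline and blue lower. The KH2 rows are mostly red, and the darkest blue squares are those of Uqcrh, Cox7a2 and Ndufb3 in line 1.

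Levels also separated the inducible lines from KH2 whether or not doxycycline was present. All 4 arrays of the inducible lines lay above both KH2 arrays for 24 of 82 members (29.3%), where this held for 8.22% of all genes. They lay below for 9 members (11%), where it held for 11.6%. Complex I, with 33 of the 82 members, held 12 of the 24, Ndufa4 among them by its symbol. Ndufa4 read 13.19 and 13.30 on the Sox17_dox arrays and 13.12 and 13.23 on the Sox17_untreated arrays, against 12.53 on the KH2_dox array and 12.54 on the KH2_untreated array. Ndufa6, an accessory subunit of complex I, read 12.10 and 12.15 on the Sox17_dox arrays and 12.19 and 12.04 on the Sox17_untreated arrays, against 11.51 on the KH2_dox array and 11.40 on the KH2_untreated array. These 2 genes were singled out after their values were seen. With KH2 measured once per condition, line and culture cannot be told apart.

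Among related genes outside the members, the regulators were mostly lower. Of 11 regulator genes tested, 3 were higher in doxycycline-treated line 1, with 4 for line 2 and 3 for KH2, and medians of -0.06, -0.17 and -0.16. Gabpa, which encodes the ETS-family DNA-binding subunit of GABP, a known activator of respiratory chain genes, had nearly equal values of change in each line. It read 7.31, 6.98 and 6.93 with doxycycline in line 1, line 2 and KH2, against 7.96, 7.64 and 7.58 without it. All 3 doxycycline arrays lay below all 3 untreated ones, and the changes were -0.66, -0.65 and -0.65. The fitted difference was -0.65 ± 0.19 (SE, n = 3 against 3, limma adjusted p = 0.784, or 0.143 with the cell line as a block). A dimmer Gabpa probe gave 0.25, -0.24 and -0.40. Tfam, which encodes a packaging and transcription factor of mitochondrial DNA, had changes of -0.24, -0.40 and -0.52. Its second probe gave -0.14, -0.31 and -0.53. Tfb2m, a mitochondrial transcription factor, had changes of 0.00, -0.50 and -0.75. Nrf1, another activator of these genes, had changes of -0.28, -0.33 and -0.41. Tfam and Nrf1 were singled out after their values were seen. The highest mean changes among regulators were those of the coactivator Ppargc1b (0.14, -0.22 and 0.52) and the nuclear receptor Esrra (-0.03, 0.17 and 0.26).

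**Figure D5:**
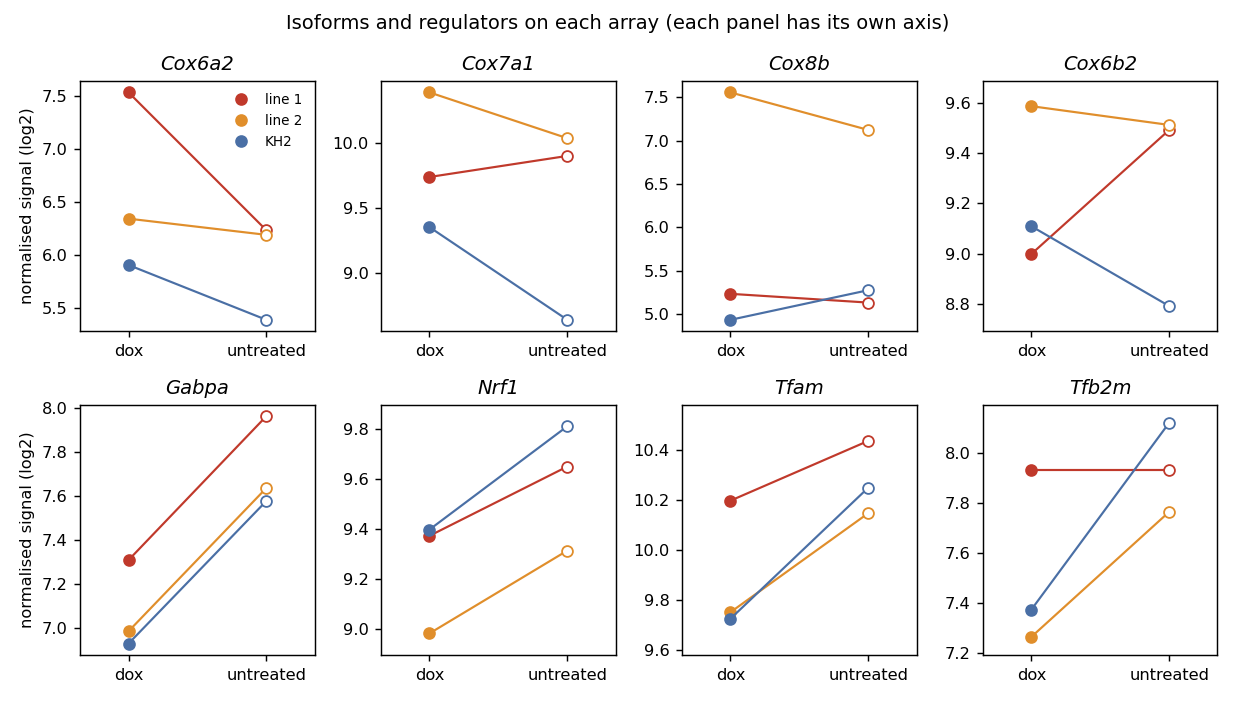
Normalised signal (log2) on each array of 4 muscle or testis forms of complex IV subunits (top) and 4 regulators (bottom), with doxycycline (filled) and without it (open), joined within a cell line. Cox8b is high in line 2 only, and Gabpa, Nrf1 and Tfam are lower with doxycycline in each of the 3 lines.

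The 4 further lists of the pathway had KH2 medians between 0.00 and 0.10. Of 18 assembly factors and translation genes, 4 were higher with doxycycline in line 1 and 6 in line 2, while KH2 had 11 (median 0.08). Their highest mean changes were those of Surf1 and Foxred1, assembly factors of complexes IV and I (-0.11, 0.25 and 0.46, and 0.23, -0.07 and 0.23), and the lowest those of Lrpprc and Tmem126b (-0.14, -0.12 and -0.79, and -0.33, -0.34 and -0.13). Lrpprc stabilises mitochondrial mRNAs. Of 14 electron carrier and entry genes, 10 were higher in line 1 and 6 in line 2, while KH2 had 8 (median 0.05). Etfb, an electron transfer flavoprotein subunit, led with 0.25, 0.17 and 0.68, followed by the coenzyme Q gene Coq6 (0.39, 0.04 and 0.46). Cyc1, which encodes cytochrome c1 of complex III but whose symbol falls outside the naming rule, had changes of 0.30, -0.03 and 0.49, and was named after its values were seen. Etfa (-0.08, -0.11 and -0.41) and the cytochrome c gene Cycs (0.06, -0.33 and -0.05) were lowest. The Cycs probe was dim, reading between 5.43 and 5.77. Of 13 citric acid cycle genes, 7 were higher in line 1 and 8 in line 2, while KH2 had 6 (median 0.00). Citrate synthase, Cs, led that list with 0.15, 0.32 and 0.21, and its doxycycline arrays lay above its untreated arrays. Idh3g followed with 0.45, 0.01 and 0.20, while Dld (-0.03, -0.20 and -0.61) and Idh3a (-0.51, -0.32 and 0.00) were lowest. Of 6 carrier and coupling genes, 3 were higher in line 1 and 2 in line 2, while KH2 had 6 (median 0.10). Of these, Vdac2 and Atpif1 had the highest mean changes (0.24, -0.04 and 0.07, and -0.13, 0.08 and 0.17), and Slc25a5 and Vdac3 the lowest (0.01, -0.05 and 0.05, and -0.04, -0.08 and 0.13). No gene of these lists passed a test.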

How the data were processed

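RNA was hybridised to 6 Illumina MouseRef-8 v2 bead arrays, 1 per line and condition. Per the submitters' processing notes BeadStudio was used, with its version not given in the sources used here. The deposited file holds raw signal intensity per probe, the standard error between beads, the number of beads (counts, a median of 38 to 40 per array) and a detection p-value. The authors' deposited background-subtracted intensity was used only as an alternative, floored at 16 and taken to log2. Raw intensities were background-corrected, given an offset of 16, quantile-normalised and taken to log2 with neqc of limma 3.58.1 in R 4.3.3. Testing was restricted to probes detected (p under 0.05) on 2 or more arrays, and used lmFit and eBayes, with Benjamini-Hochberg adjustment over all 12373 probes. Where a gene had several such probes, the brightest stood for it. Gene names came from the platform annotation, in which 1719 probes had no symbol, and all 82 Entrez numbers of the members matched RefSeq. All per-sample columns were mapped, with 0 columns not used.

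The comparisons were Sox17_dox with Sox17_untreated, 3 doxycycline arrays with 3 untreated arrays, and the difference of the change between inducible lines and KH2. The labels name the cell line of each array, so arrays pair by line, and deviations from the group means of paired arrays correlated (r = 0.509 in both inducible lines, which mirror each other with 2 arrays a group). Nothing says that arrays came from separate cultures, so p-values measure only the spread between these samples. Named are the 2 highest and 2 lowest members of each complex and 2 highest and 2 lowest genes of each further list by mean change, members changed by 1 or more, core subunits and isoform groups, and members whose probes differed by over 0.5 in a change (Ndufb6, Ndufaf5 and Cox6b2). Other genes were named after their values were seen, including all those listed for their p-value, separation or sign. Members and lists were chosen with earlier results of these data known. Alternatives were no background correction, median scaling, the authors' values, no filter on dim probes or detection on all arrays, all probes of a gene averaged, trended robust moderation, the line as a block and leaving out arrays or lines. The fitting code was tested on simulated data.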

Additional observations from a re-analysis of the deposited data

Results flagged for a closer look

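In 4 groups of respiratory chain genes the median log2 change was negative in both inducible lines and positive in KH2. Over all 8605 genes the medians had the same signs, at -0.011 for line 1, -0.004 for line 2 and 0.019 for KH2. The line 1 medians of complex V and of the complex I assembly factors, given below, lay above that of all genes. These differences were not tested. For complex III the medians were -0.111 for line 1 and -0.203 for line 2, against 0.194 for KH2. For complex V they were -0.006 and -0.051, against 0.147. The line 1 median of complex V turned positive, to 0.037, with median scaling and to 0.005 with all probes of a gene averaged. The complex I assembly factors had medians of -0.001 and -0.147, against 0.187. Their line 1 median turned to 0.076 with median scaling, 0.072 in the authors' values and 0.006 with all probes averaged, where the line 2 median was 0.002. The complex II assembly factors had medians of -0.294 and -0.133, against 0.104. For complex III and the complex II assembly factors the signs were the same under each alternative of background, scaling, filter and probe choice. KH2 was measured once per condition.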

How the results depend on the processing

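Single arrays for KH2 and 2 inducible lines limit every value, and 4 members were not detected on all 6 arrays. With the cell line as a replicate block, Sox17_dox against Sox17_untreated called 1 probe in place of 0, and no other call changed. The added block on the difference of changes called 0. With median scaling, 27 members were higher in line 2, 13 of complex I and 0 of complex V, 1 member had its doxycycline arrays all below, and the members' medians were 0.004, -0.058 and 0.263 in line 1, line 2 and KH2. In the authors' values 2 complex V members were higher in line 2, 1 member had its arrays all below, and the KH2 median was 0.215. Leaving out 1 line gave 9 to 16 members above (15.9% to 16.9% of all genes) and 3 to 20 below (17.2% to 18.3% of all genes). For the difference between inducible lines and KH2, none of which passed a test, signs turned for Gabpa (0.151 with median scaling, 0.075 in the authors' values, 0.158 without Sox17_untreated replicate 1, 0.157 without Sox17_dox replicate 2), Cox7b (-0.036 in the authors' values), Cox6a2 (-0.207 in the authors' values, -0.386 without Sox17_dox replicate 1), Nrf1 (-0.087 and -0.06 without Sox17_dox replicate 1 and Sox17_untreated replicate 2), Tfam (-0.016 without Sox17_dox replicate 1) and Uqcrb (0.023 without Sox17_untreated replicate 1). Tfb2m turned to 0.084 between Sox17_dox and Sox17_untreated without Sox17_dox replicate 2. Over all single arrays left out, these values reached -0.168 for Gabpa, 0.807 for Cox6a2, 0.303 for Nrf1, 0.43 for Tfam, -0.17 for Uqcrb and -0.584 for Tfb2m at their other end. The causes were not tested. KH2 has 1 array per condition and could not be left out of that difference.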
